A study of Mus musculus with 48 samples.

Results

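Insulin signalling and the insulin-like growth factor (IGF) binding proteins were followed through 9 genes, Insr, Irs1, Irs2, Pik3r1, Akt2, Foxo1, Igfbp1, Igfbp2 and Igfbp4. They were chosen by symbol, with earlier results of these data known. All 9 were among the 11275 genes listed for frozen liver (FROZ), and 6 of them (Insr, Irs2, Akt2, Igfbp1, Igfbp2 and Igfbp4) were among the 6673 genes listed for formalin-fixed paraffin-embedded liver (FFPE). Male B6C3F1 mice, 4 weeks old, drank water with dichloroacetic acid (DCA), a by-product of water chlorination, for 6 days. Each of 4 groups held 6 mice, a vehicle group (0 mg/kg-d, 0 g/L) and groups at 198 (1.0 g/L), 313 (2.0 g/L) and 427 mg/kg-d (3.5 g/L), and each of the 24 mice gave 1 FROZ and 1 FFPE library, so that 48 libraries were measured by TempO-Seq, a targeted assay that reads each transcript through ligated probe pairs. The FROZ libraries were made from isolated RNA and the FFPE libraries from lysed sections of archived blocks. The sets of lobes sampled were not identical, so preservation, input and lobe cannot be told apart.

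Insulin binds its receptor on hepatocytes, and the receptor phosphorylates the adaptors IRS1 and IRS2. These dock phosphoinositide 3-kinase (PI3K), whose lipid product recruits the kinase AKT2, and AKT2 phosphorylates the transcription factor FoxO1 and keeps it out of the nucleus. Igfbp1 is a classical liver gene that FoxO1 raises and insulin lowers, and its secreted product binds IGF in plasma together with the other IGF binding proteins.

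A level below is the deposited log2(CPM + 1), where CPM is reads per 1000000 reads on listed genes, and the lowest, median and highest of the 6 animals of a group are given. A fold change is on the log2(CPM + 1) scale, which understates the change of low genes, and is followed by its standard error. Adjusted p-values are from limma with Benjamini-Hochberg adjustment over all genes of the table, and a gene was called when its adjusted p was under 0.05. Reads on listed genes came to between 6687310 and 9843967 per FROZ library and between 1831824 and 6011705 per FFPE library, as read from the CPM of 1 read, and counting error is only part of the spread because PCR reads are not independent molecules. Levels of different genes were not compared, since probes differ in efficiency, and levels in FROZ and FFPE are on separate scales. In these bulk samples, fewer cells of a type and less RNA per cell cannot be told apart.

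The hepatocyte markers summed to 18500 to 35220 CPM in the FROZ libraries, and of the pancreatic markers Ins1 and Ins2 were not among the listed genes. At 427 mg/kg-d, 5 of the 7 listed Kupffer cell markers fell in FROZ, and their summed level was 133 to 205 CPM against 214 to 289 CPM in the controls. At 313 mg/kg-d none of these 7 was called by limma, and the sum ranged from 158 to 303 CPM. In FFPE the sum of the 4 listed Kupffer cell markers was 158 to 227 CPM at 427 mg/kg-d, below the 252 to 477 CPM of the controls, and none of the 4 was called by limma. Of the other markers in FROZ, Stab2 (endothelial), Dcn (stellate) and Apob (hepatocyte) fell at 313 and 427 mg/kg-d, Colec11 (stellate) fell at 427 mg/kg-d, Lrat (stellate) rose at 313 mg/kg-d and Hnf4a (hepatocyte) rose at 427 mg/kg-d. The summed endothelial and stellate levels overlapped the controls at every dose. The part of these cell types in the results below was not tested.

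Promoter sequences are shown for the 3 members whose window held the 7-letter core of the insulin response element, TGTTTTG. RefSeq windows (GRCm38.p6) of 250 bases before to 50 after the start were searched on both strands and matched 8 of the 9 members, with 13 windows. TGTTTTG, or CAAAACA on the opposite strand, was in 3 of the 13 windows and in 6.28% of all 32851 windows. The forkhead letters TGTTTAC, or GTAAACA on the opposite strand, which differ from the core in their last bases, were in 0 of the 13 and in 3.65% of all windows. The stretches before the start are printed on the gene's strand, with each match in capitals. They are chr11:7197537-7197771 (plus strand) for Igfbp1, chr8:11008940-11009179 (minus strand) for Irs2 and chr1:82291450-82291689 (minus strand) for Irs1.
Igfbp1: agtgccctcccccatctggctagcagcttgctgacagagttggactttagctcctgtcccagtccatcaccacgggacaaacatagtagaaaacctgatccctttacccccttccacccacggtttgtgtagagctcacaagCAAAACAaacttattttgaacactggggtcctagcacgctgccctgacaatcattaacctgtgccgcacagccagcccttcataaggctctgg
Irs2: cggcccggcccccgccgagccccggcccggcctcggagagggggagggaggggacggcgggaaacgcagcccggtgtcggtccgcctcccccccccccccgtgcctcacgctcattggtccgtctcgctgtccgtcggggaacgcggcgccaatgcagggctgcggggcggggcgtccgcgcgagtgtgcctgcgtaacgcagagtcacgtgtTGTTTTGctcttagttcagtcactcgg
Irs1: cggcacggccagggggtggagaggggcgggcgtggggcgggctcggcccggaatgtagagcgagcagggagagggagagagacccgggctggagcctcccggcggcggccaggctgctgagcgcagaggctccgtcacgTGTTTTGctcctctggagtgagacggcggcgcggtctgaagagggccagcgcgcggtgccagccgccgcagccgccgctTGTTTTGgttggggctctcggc
The match began 108 bases before the RefSeq start in Igfbp1 and 37 bases before it in Irs2, and Irs1 held matches at 111 and 32 bases before its start. The GENCODE start of Irs2 (chr8:11008458) lies downstream of its RefSeq start, so the Irs2 match is farther from that start. A match of letters is a description and was not tested as a binding site.

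In frozen liver, limma on the deposited values called Igfbp1, Irs1, Akt2 and Igfbp2 up at the highest dose and Foxo1 down at every dose. Of the 9 members, 4 rose at 427 mg/kg-d, where 22.7% of all genes did, and 1 fell, where 7.33% of all genes did. With median-ratio scaling, which sets the median change of all genes near 0, 2 rose (Igfbp1 and Irs1) and 2 fell (Foxo1 and Igfbp4) at this dose. Igfbp1 was the member that rose by more than 2-fold, a size that 2.26% of all genes passed. At 313 mg/kg-d 1 member rose (Akt2), against 20.5% of all genes, and 1 fell (Foxo1), against 6.15%. At 198 mg/kg-d 1 member fell (Foxo1), against 0.443% of all genes, and none rose by limma, against 1.12%. At an unadjusted p under 0.05 there were 3 of 9 members and 1924 of 11275 genes at this dose. By the exact rank sum test 0, 2 and 1 of 9 members were called in order of dose, against 0, 2256 and 2633 of 11275 genes. At 198 mg/kg-d that test could call no gene, since full separation of 6 from 6 animals did not pass the adjustment. Which settings end a call is given under each gene. These 3 comparisons share their control animals. Over all genes of the table the median change was 0.07, 0.11 and 0.10 on the log2 scale in order of dose.

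**Figure D1:**
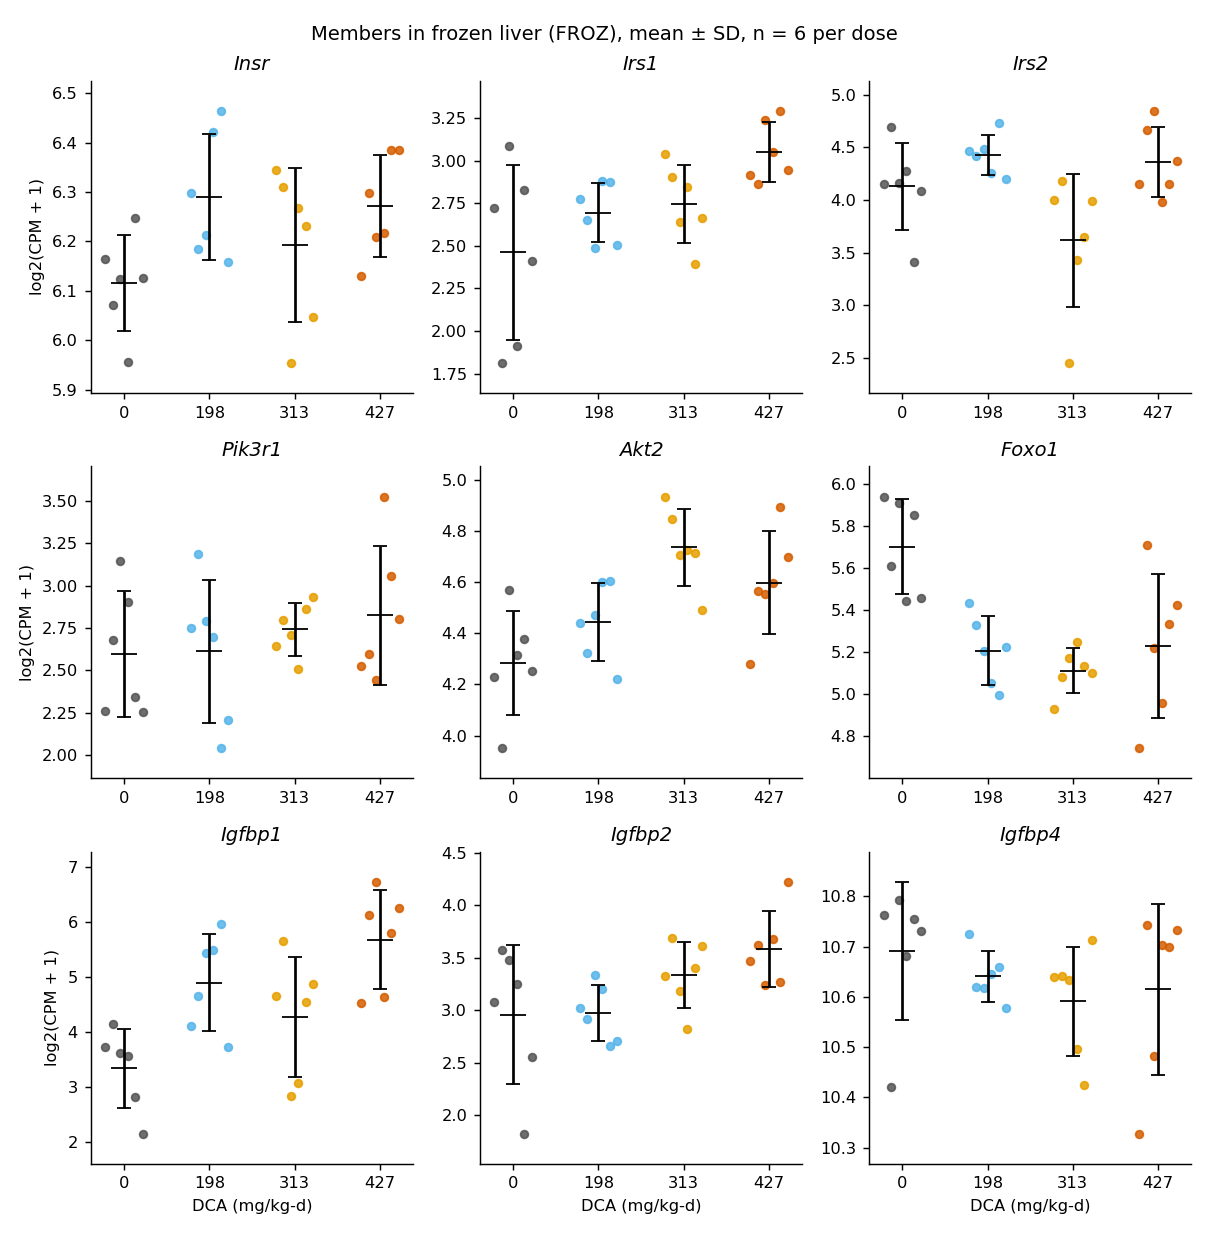
Level of each member in frozen liver, as log2(CPM + 1), by DCA dose in mg/kg-d; each point is 1 animal, and the bar and whiskers are the mean ± SD of 6 animals. All 6 Igfbp1 values at 427 mg/kg-d are above every control, and Foxo1 is below every control at 198 and 313 mg/kg-d.

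Insr encodes the insulin receptor (chr8:3122061-3279617, minus strand, GRCm38). In FROZ it was at 5.96, 6.13 and 6.25 in the controls (lowest, median, highest), 6.16, 6.26 and 6.46 at 198 mg/kg-d, 5.95, 6.25 and 6.34 at 313 mg/kg-d, and 6.13, 6.26 and 6.39 at 427 mg/kg-d. The groups overlapped at every dose, with 3 of 6 treated animals above all controls each time. The log2 fold change was 0.17 ± 0.08, 0.08 ± 0.08 and 0.16 ± 0.08 at the 3 doses (adjusted p = 0.25, 0.51 and 0.14). The 95% interval at 427 mg/kg-d ran from -0.01 to 0.32, up to 1.25-fold.

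Irs1 (chr1:82233101-82291416, minus strand) encodes an adaptor that carries the signal from the receptor to PI3K. In the controls its FROZ level was 1.81, 2.57 and 3.09, from 20 to 69 reads per library. It was 2.49, 2.71 and 2.88 at 198 mg/kg-d, 2.39, 2.76 and 3.04 at 313 mg/kg-d, and 2.86, 3.00 and 3.29 at 427 mg/kg-d. The treated animals lay inside the control range at the lower doses, and at 427 mg/kg-d 2 of 6 were above it, with the whole group in its upper part. Irs1 rose at 427 mg/kg-d by 0.59 ± 0.17 (1.50-fold, 95% interval 1.18 to 1.92, adjusted p = 0.011). At 198 and 313 mg/kg-d its fold change was 0.23 ± 0.17 and 0.29 ± 0.17 (adjusted p = 0.52 and 0.24). By the exact rank sum test the adjusted p at 427 mg/kg-d was 0.081, which ended the call.

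Irs2 (chr8:10984681-11008458, minus strand) is the second hepatic adaptor, and FoxO1 is known to raise it in fasted liver. Its FROZ level was 3.41, 4.15 and 4.69 in the controls and 4.19, 4.44 and 4.73 at 198 mg/kg-d. It was 2.46, 3.82 and 4.18 at 313 mg/kg-d and 3.98, 4.26 and 4.84 at 427 mg/kg-d. The dose order of the means was thus 313, 0, 427 and 198 mg/kg-d, and every group overlapped the controls. Against the controls Irs2 was not called at any dose, with fold changes of 0.30 ± 0.22, -0.51 ± 0.22 and 0.23 ± 0.22 (adjusted p = 0.52, 0.088 and 0.47). Its value at 313 mg/kg-d passed the test with median-ratio scaling, described below for Akt2 (-0.64, adjusted p = 0.037), and without animal 7 or 74 (adjusted p = 0.029 and 0.045). Between neighbouring doses it fell from 198 to 313 mg/kg-d by 0.81 ± 0.22 on the log2 scale (adjusted p = 0.017), the 1 member called in that step, where 11.7% of all genes were called. From 313 to 427 mg/kg-d the change was 0.74 ± 0.22 (adjusted p = 0.063). In that step limma called 0 of 9 members and 3.07% of all genes. At an unadjusted p under 0.05 there were 2 members, Irs2 and Igfbp1, and 1975 of 11275 genes. With array quality weights, which let libraries differ in weight, Irs2 and Igfbp1 were both called (0.80 and 1.53, adjusted p = 0.039 and 0.047). Irs2 was also called without animal 73 or 74 (adjusted p = 0.046 and 0.043).

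The Irs2 values at 313 mg/kg-d were spread by 2 animals, animal 75 at 2.46 (30 reads) and animal 76 at 3.43 (71 reads). Leaving out single animals kept the fall from 198 to 313 mg/kg-d, with fold changes from -0.92 to -0.58 and adjusted p from 0.010 to 0.045. The same animals were the lowest of their group for Igfbp1 in FROZ, at 2.83 and 3.08. After removing dose means the FROZ levels of Igfbp1 and Irs2 had a Pearson r of 0.75 over the 24 libraries, which put Irs2 at place 4 among 11270 genes ordered by that r; the pair was chosen after its values were seen, and both genes share the depth of each library. In FFPE the corresponding r was 0.10.

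Pik3r1 (chr13:101680563-101768217, minus strand) encodes the regulatory subunit that tethers PI3K to the IRS adaptors. FROZ levels of Pik3r1 were 2.25, 2.51 and 3.14 in the controls, 2.04, 2.72 and 3.19 at 198 mg/kg-d, 2.51, 2.75 and 2.93 at 313 mg/kg-d, and 2.44, 2.70 and 3.53 at 427 mg/kg-d. All groups overlapped. The fold change at 427 mg/kg-d was 0.23 ± 0.20 (adjusted p = 0.41), with a 95% interval of 0.89 to 1.55-fold. A rise of up to 1.55-fold is inside this interval. Pik3r1 had 33 to 72 reads per library in the controls and 41 to 88 at 427 mg/kg-d.

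Akt2 (chr7:27591552-27640826, plus strand) encodes the main AKT kinase of insulin action in liver. The level in FROZ was 3.95, 4.28 and 4.57 in the controls, 4.22, 4.46 and 4.61 at 198 mg/kg-d, 4.49, 4.72 and 4.94 at 313 mg/kg-d, and 4.28, 4.58 and 4.90 at 427 mg/kg-d. Of the 6 animals at 313 mg/kg-d 5 were above all controls, and at 427 mg/kg-d 3 of 6 were. Akt2 rose by 0.45 ± 0.11 at 313 mg/kg-d (1.37-fold, adjusted p = 0.0025) and by 0.32 ± 0.11 at 427 mg/kg-d (1.25-fold, adjusted p = 0.026). At 198 mg/kg-d the value was 0.16 ± 0.11 (adjusted p = 0.46). Scaling the libraries by their median ratio left 0.18 at 427 mg/kg-d (adjusted p = 0.21) and so ended the call at that dose. The call was also lost without animal 4, 101 or 102 (adjusted p = 0.083, 0.074 and 0.056), with only the 2 groups in the fit (0.050) and by the exact rank sum test (0.11).

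Foxo1 (chr3:52268336-52353221, plus strand) encodes the transcription factor at the end of this branch, which AKT inactivates. FROZ levels of Foxo1 were 5.45, 5.73 and 5.94 in the controls, with 381 to 559 reads per library. It was 5.00, 5.22 and 5.43 at 198 mg/kg-d, 4.93, 5.12 and 5.25 at 313 mg/kg-d, and 4.74, 5.28 and 5.71 at 427 mg/kg-d. Every treated animal was below every control at 198 and 313 mg/kg-d, which 0.479% and 2.39% of all genes also showed, and at 427 mg/kg-d 5 of 6 were, animal 98 being the exception at 5.71. Foxo1 fell by 0.50 ± 0.13 at 198 mg/kg-d (0.71 of the control level, adjusted p = 0.041), by 0.59 ± 0.13 at 313 mg/kg-d (0.66 of it, adjusted p = 0.00093) and by 0.47 ± 0.13 at 427 mg/kg-d (0.72 of it, adjusted p = 0.0052). From 198 to 313 and from 313 to 427 mg/kg-d it was not called, at -0.10 ± 0.13 and 0.12 ± 0.13 (adjusted p = 0.67 in both). The call at 198 mg/kg-d was lost on leaving out any 1 of 8 of the 12 animals (3, 4, 5, 7, 51, 52, 53 or 54), with adjusted p from 0.053 to 0.10, and over all 12 the fold change ran from -0.55 to -0.45. It was also lost with a variance prior without trend (adjusted p = 0.059) and by the exact rank sum test (0.11), which gave 0.055 at 427 mg/kg-d. The rank sum test could call no gene at 198 mg/kg-d, since full separation of the groups, which Foxo1 showed, did not pass there.

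Igfbp1 (chr11:7197782-7202546, plus strand) encodes the liver-made IGF binding protein that insulin lowers. Its FROZ level was 2.15, 3.59 and 4.14 in the controls and 3.72, 5.04 and 5.96 at 198 mg/kg-d. It was 2.83, 4.60 and 5.65 at 313 mg/kg-d and 4.53, 5.95 and 6.72 at 427 mg/kg-d. In CPM its mean was 10.1 in the controls and, in order of dose, 33.3, 22.9 and 58.0 in the treated groups. The number of animals above all controls was 4 of 6 at 198, 4 of 6 at 313 and 6 of 6 at 427 mg/kg-d, a separation that 11.4% of all genes showed at 427 mg/kg-d. Igfbp1 rose at 427 mg/kg-d by 2.34 ± 0.46 (5.06-fold, 95% interval 2.64 to 9.71, adjusted p = 0.00028).

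At the lower doses the Igfbp1 fold change was 1.56 ± 0.46 at 198 mg/kg-d (2.95-fold, adjusted p = 0.073) and 0.94 ± 0.46 at 313 mg/kg-d (1.92-fold, adjusted p = 0.13). Neither passed the test, and the differences between neighbouring doses, -0.62 ± 0.46 and 1.40 ± 0.46, did not either (adjusted p = 0.42 and 0.092). Leaving out animal 75 gave 1.23 at 313 mg/kg-d (adjusted p = 0.0499). The call at 427 mg/kg-d held on leaving out each of the 12 animals, with fold changes from 2.10 to 2.57.

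The 3 genes with at least 10 CPM whose FROZ pattern was most like that of Igfbp1 over the 24 libraries were Dnajc7, Fau and Rnaseh2c, with Pearson r of 0.83, 0.82 and 0.79. Dnajc7 encodes a co-chaperone, Fau a ribosomal protein fused to a ubiquitin-like one, and Rnaseh2c a subunit of ribonuclease H2. Their fold changes at 427 mg/kg-d were 0.48 ± 0.11, 0.42 ± 0.10 and 0.32 ± 0.10 (adjusted p = 0.0018, 0.0015 and 0.013). Over the 24 FFPE libraries the same r was 0.21, -0.03 and 0.43. Among the members, Irs2 had the highest r with Igfbp1 over all 24 FROZ libraries (0.61), followed by Insr (0.58) and Igfbp2 (0.54), and Foxo1 the lowest (-0.31).

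Igfbp2 (chr1:72824503-72852474, plus strand) encodes another IGF carrier made by liver. Its FROZ level was 1.82, 3.16 and 3.58 in the controls and 2.66, 2.97 and 3.33 at 198 mg/kg-d. It was 2.82, 3.37 and 3.69 at 313 mg/kg-d and 3.24, 3.55 and 4.22 at 427 mg/kg-d. Of the 6 animals at the highest dose 3 were above all controls. Igfbp2 rose there by 0.63 ± 0.23 (1.54-fold, adjusted p = 0.038), and at 198 and 313 mg/kg-d the value was 0.02 ± 0.23 and 0.38 ± 0.23 (adjusted p = 0.99 and 0.23). The call at 427 mg/kg-d was lost under median-ratio scaling (0.50, adjusted p = 0.11) and on leaving out animal 7, 8, 98, 100 or 102, with adjusted p of 0.13, 0.090, 0.059, 0.065 and 0.11, and without animal 7 the fold change was 0.40. It was also lost with only the 2 groups in the fit (adjusted p = 0.078) and by the exact rank sum test (0.20).

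Igfbp4 (chr11:99041244-99054392, plus strand) encodes an IGF binding protein whose hold on IGF is released by cleavage. Its FROZ level was 10.42, 10.74 and 10.79 in the controls, 10.58, 10.63 and 10.73 at 198 mg/kg-d, 10.42, 10.64 and 10.71 at 313 mg/kg-d, and 10.33, 10.70 and 10.74 at 427 mg/kg-d. The groups overlapped, with 1 of 18 treated animals outside the control range. The fold change was -0.05 ± 0.08, -0.10 ± 0.08 and -0.08 ± 0.08 (adjusted p = 0.82, 0.42 and 0.54), and the 95% interval at 427 mg/kg-d was 0.84 to 1.07-fold. With median-ratio scaling it fell by 0.24 at 313 mg/kg-d (adjusted p = 0.037) and by 0.22 at 427 mg/kg-d (adjusted p = 0.047), so that its call in FROZ turned on the scaling.

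**Figure D2:**
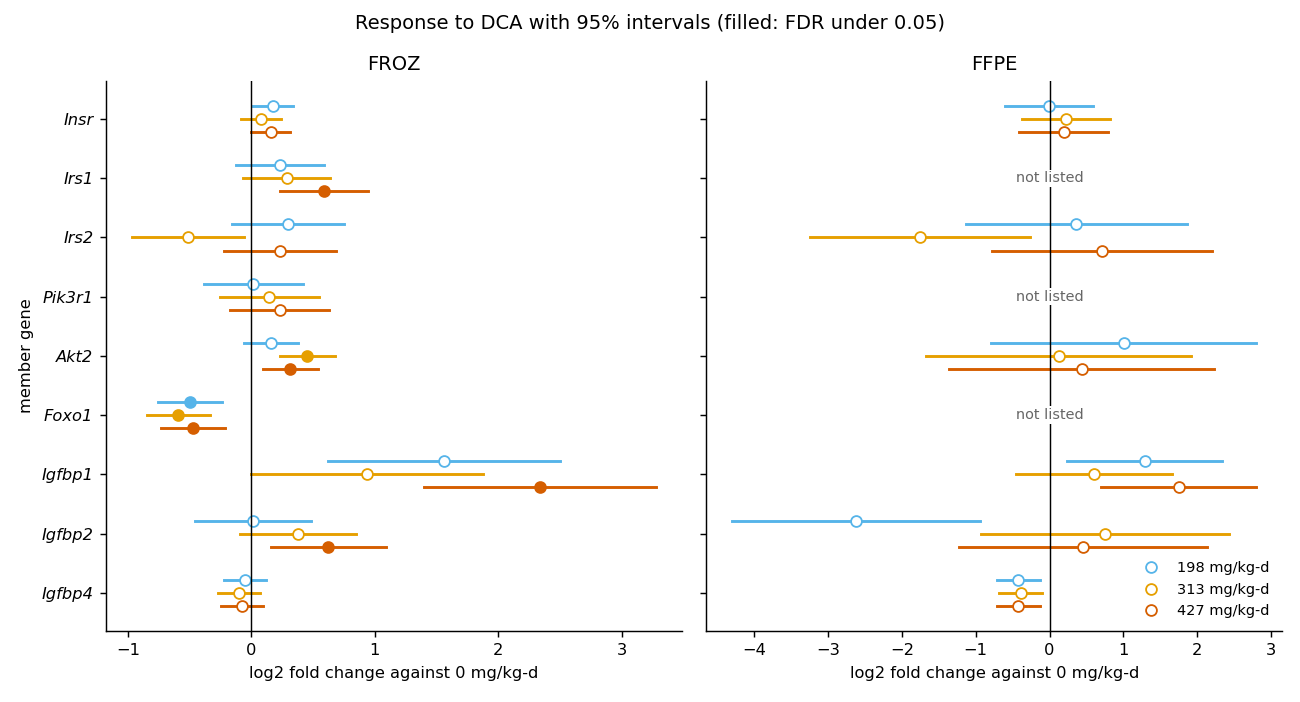
Log2 fold change of each member against 0 mg/kg-d in FROZ (left) and FFPE (right), with 95% intervals from limma; filled points have an adjusted p under 0.05, colours mark the dose in mg/kg-d, and the horizontal scales differ. Filled points are Foxo1 at 3 doses, Akt2 at 2 and Irs1, Igfbp1 and Igfbp2 at 427 mg/kg-d, all in FROZ.

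Over dose as a number, 4 of 9 members had a rising slope in FROZ, where 24.4% of all genes did, and 1 had a falling slope, where 7.73% did. Per 100 mg/kg-d the slope was 0.47 ± 0.11 for Igfbp1 (adjusted p = 0.0019), 0.15 ± 0.05 for Igfbp2 (0.026), 0.13 ± 0.04 for Irs1 (0.011), 0.09 ± 0.03 for Akt2 (0.0074) and -0.12 ± 0.03 for Foxo1 (0.0043). Irs2 had a slope of -0.01 ± 0.06 (adjusted p = 0.95), and the values of Insr, Pik3r1 and Igfbp4 were 0.03 ± 0.02, 0.06 ± 0.04 and -0.02 ± 0.02 (adjusted p = 0.22, 0.35 and 0.44). Under median-ratio scaling the slopes of Irs1, Akt2 and Igfbp2 lost their calls (adjusted p = 0.052, 0.079 and 0.087) and Igfbp4 gained one (-0.06, adjusted p = 0.023). The Igfbp2 slope was also lost without animal 7, 8 or 102, at 0.10, 0.14 and 0.12.

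Across all genes the same scaling moved the balance of calls. At 427 mg/kg-d 2565 genes rose and 826 fell in FROZ as deposited, and 1420 and 1425 did after median-ratio scaling. At 313 mg/kg-d 2317 rose and 693 fell, against 1158 and 1219, and at 198 mg/kg-d 126 and 50, against 29 and 94. From 198 to 313 mg/kg-d the counts were 908 and 411, against 634 and 585, and for the slope 2754 and 872, against 1535 and 1514.

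In FFPE liver none of the 6 listed members passed the test at any dose. Limma called 0 of 6 members at 198, 313 and 427 mg/kg-d and for the slope, where 0.0599%, 1.08%, 2.41% and 2.17% of all genes were called. At an unadjusted p under 0.05 there were 3, 2, 2 and 2 members, and 785, 781, 581 and 611 of 6673 genes. The exact rank sum test called 0, 0 and 1 members at the 3 doses, and 0, 0 and 299 genes. At 198 and 313 mg/kg-d it could call no gene, since full separation of the groups did not pass the adjustment. Over all FFPE genes 103 rose and 58 fell at 427 mg/kg-d, against 84 and 80 after median-ratio scaling, which moved the median change from 0.18 to 0.07, and the slope gave 101 and 44, against 87 and 60. Irs1, Pik3r1 and Foxo1 are not among the genes listed for FFPE and were not analysed there.

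**Figure D3:**
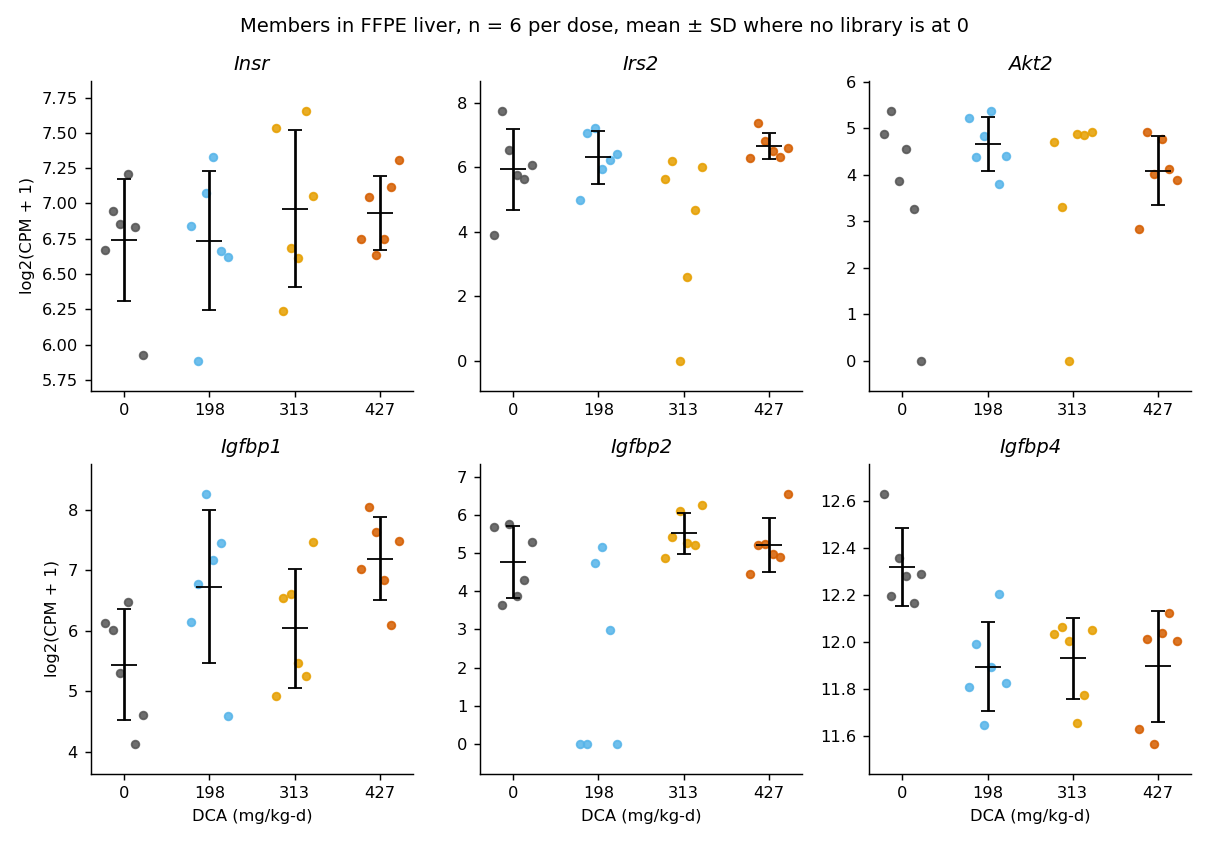
Level of the 6 members listed in FFPE liver, as log2(CPM + 1), by DCA dose in mg/kg-d; each point is 1 animal, and the mean ± SD of 6 animals is drawn only where no library is listed at 0. Igfbp1 at 427 mg/kg-d has 5 of 6 animals above all controls, and Igfbp4 is below all controls at 313 and 427 mg/kg-d.

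Igfbp1 in FFPE was at 4.13, 5.66 and 6.47 in the controls, 4.59, 6.97 and 8.26 at 198 mg/kg-d, 4.93, 6.00 and 7.47 at 313 mg/kg-d, and 6.10, 7.26 and 8.05 at 427 mg/kg-d. The number of animals above all controls was 4, 3 and 5 of 6 in order of dose. Its fold change was 1.29 ± 0.52 at 198 mg/kg-d (adjusted p = 0.33), 0.60 ± 0.52 at 313 mg/kg-d (0.71) and 1.75 ± 0.52 at 427 mg/kg-d (3.36-fold, 95% interval 1.62 to 6.98, adjusted p = 0.072). With only the 12 libraries of the 0 and 427 mg/kg-d groups in the fit, the last value had an adjusted p of 0.0070, and with array quality weights it was 1.89 with an adjusted p of 0.00033. Without animal 101 it was 1.97 (adjusted p = 0.047). The slope per 100 mg/kg-d was 0.34 ± 0.12 (adjusted p = 0.21), and with array quality weights 0.41 (adjusted p = 0.0014).

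Igfbp4 in FFPE was at 12.17, 12.29 and 12.63 in the controls, 11.65, 11.86 and 12.21 at 198 mg/kg-d, 11.66, 12.02 and 12.07 at 313 mg/kg-d, and 11.57, 12.01 and 12.12 at 427 mg/kg-d. All treated animals were below all controls at 313 and 427 mg/kg-d, which 0.614% and 1.54% of all genes showed, and 5 of 6 were at 198 mg/kg-d. The fold change was -0.43 ± 0.14, -0.39 ± 0.14 and -0.42 ± 0.14 (adjusted p = 0.27, 0.24 and 0.15), and at 427 mg/kg-d the exact rank sum test gave an adjusted p of 0.048 and array quality weights one of 0.0096. The slope per 100 mg/kg-d was -0.10 ± 0.04 (adjusted p = 0.22), and with array quality weights -0.10 (adjusted p = 0.028). The 6 hepatocyte markers listed in FFPE summed to 38580 to 51130 CPM in the controls, 40020 to 66740 CPM at 198 mg/kg-d, 37880 to 44850 CPM at 313 mg/kg-d and 27060 to 31980 CPM at 427 mg/kg-d. Their sum was below the control range at 427 mg/kg-d and overlapped it at the lower doses. The sum is weighted to Apoa1 and Alb, whose mean CPM went from 31350 to 18130 and from 9666 to 6262 at 427 mg/kg-d. Ttr and Hnf4a went the other way, from 1143 to 1704 and from 1382 to 1604. Limma called 1 of the 6 markers at this dose, as a fall. The part of the sum in the Igfbp4 values was not tested.

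Irs2 in FFPE was at 3.91, 5.92 and 7.74 in the controls, 4.98, 6.31 and 7.23 at 198 mg/kg-d and 6.29, 6.56 and 7.36 at 427 mg/kg-d. Animals 73 to 78, at 313 mg/kg-d, were at 5.64, 6.20, 0, 2.60, 4.68 and 6.01. Animal 75 was listed at 0, a count that by counting error alone allows a level of up to 3 reads (0.865 CPM) at its depth, and animals 75 and 76 were the lowest here as in FROZ. The fold change at 313 mg/kg-d was -1.75 ± 0.73 (adjusted p = 0.32), and at 198 and 427 mg/kg-d it was 0.37 ± 0.73 and 0.71 ± 0.73 (adjusted p = 0.87 and 1.00).

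Igfbp2 in FFPE was at 3.64, 4.80 and 5.77 in the controls, 4.88, 5.33 and 6.25 at 313 mg/kg-d and 4.44, 5.09 and 6.54 at 427 mg/kg-d. Animals 49, 50 and 54, at 198 mg/kg-d, were listed at 0, and animals 51, 52 and 53 were at 4.73, 5.16 and 2.97. By counting error alone a count of 0 allows a level of up to 3 reads, which is 1.64, 0.580 and 1.08 CPM at the depth of these 3 libraries. Whether a listed 0 is a true 0 or a failed estimate is not known, and 1580, 191 and 1001 genes were listed at 0 in them. Igfbp2 in the FROZ libraries of the same 3 animals was at 3.02, 2.92 and 2.71. The fitted change at 198 mg/kg-d, -2.62 ± 0.82 (adjusted p = 0.26), includes these 3 libraries at 0, and at 313 and 427 mg/kg-d the value was 0.76 ± 0.82 and 0.45 ± 0.82 (adjusted p = 0.79 and 1.00).

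Akt2 in FFPE was at 4.88, 5.37, 3.87, 4.55, 3.26 and 0 in control animals 3 to 8 and at 4.71, 3.30, 0, 4.89, 4.87 and 4.91 in animals 73 to 78 at 313 mg/kg-d. It was at 3.80, 4.62 and 5.36 at 198 mg/kg-d and at 2.84, 4.07 and 4.91 at 427 mg/kg-d. The groups overlapped throughout. The fold change was 1.01 ± 0.88, 0.12 ± 0.88 and 0.43 ± 0.88 (adjusted p = 0.68, 0.98 and 1.00), with a 95% interval of 0.39 to 4.69-fold at 427 mg/kg-d. Insr in FFPE was at 5.93, 6.85 and 7.21 in the controls, 5.89, 6.75 and 7.33 at 198 mg/kg-d, 6.24, 6.87 and 7.66 at 313 mg/kg-d, and 6.63, 6.90 and 7.31 at 427 mg/kg-d. All groups overlapped. At 427 mg/kg-d it had a fold change of 0.19 ± 0.29 (adjusted p = 1.00). At 198 and 313 mg/kg-d it was -0.01 ± 0.29 and 0.22 ± 0.29 (adjusted p = 1.00 and 0.83).

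The FFPE response was compared with the FROZ response of the same animals for the 6 members in both tables. Limma called 0 of 6 differences at 198, 313 and 427 mg/kg-d, where 0.0303%, 0% and 0.0303% of the 6591 shared genes were called. At an unadjusted p under 0.05 there were 2, 1 and 1 members, and 793, 540 and 157 of the 6591 genes. For Igfbp1 the FFPE fold change minus the FROZ fold change was -0.59 ± 0.53 at 427 mg/kg-d (adjusted p = 1.00), with a 95% interval of 0.31 to 1.42-fold, so that the responses were not shown to differ nor to be alike. For Igfbp4 it was -0.38 ± 0.11, -0.29 ± 0.11 and -0.35 ± 0.11 (adjusted p = 0.24, 0.51 and 1.00). Over the 6591 shared genes the median difference was -0.27, -0.22 and 0.03 in the same order. The Igfbp4 differences at 198 and 427 mg/kg-d were over 3 times their standard error, measured from 0, and did not pass the adjustment over all genes. For Igfbp2 at 198 mg/kg-d the difference was -2.63 ± 0.80 (adjusted p = 0.24), with the 3 FFPE libraries at 0 included, and for Irs2 at 313 mg/kg-d it was -1.24 ± 0.67 (adjusted p = 0.62).

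Whether an animal high in FROZ was also high in FFPE was examined after removing the mean of each dose, over the 24 animals. Pearson r was 0.75 for Irs2, 0.66 for Igfbp4, 0.54 for Igfbp1, 0.26 for Igfbp2, 0.22 for Insr and -0.02 for Akt2, and Spearman rho was 0.67, 0.68, 0.58, 0.28, 0.25 and -0.12 in the same order. The median r of the 6591 shared genes was 0.09. With 100000 two-sided permutations of the animals within dose, p was 0.0021 for Irs2, 0.0013 for Igfbp4 and 0.012 for Igfbp1, and 0.15, 0.38 and 0.93 for Igfbp2, Insr and Akt2. After adjustment over all shared genes 0 of 6 members passed, with adjusted permutation p of 0.12, 0.10 and 0.25 for Irs2, Igfbp4 and Igfbp1, and 0.698% of all genes passed with a positive r. Without the 2 animals farthest from the median in FROZ, r was 0.63 for Irs2, 0.65 for Igfbp4 and 0.63 for Igfbp1. For the other genes it was then 0.21 for Igfbp2, 0.28 for Insr and 0.02 for Akt2.

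**Figure D4:**
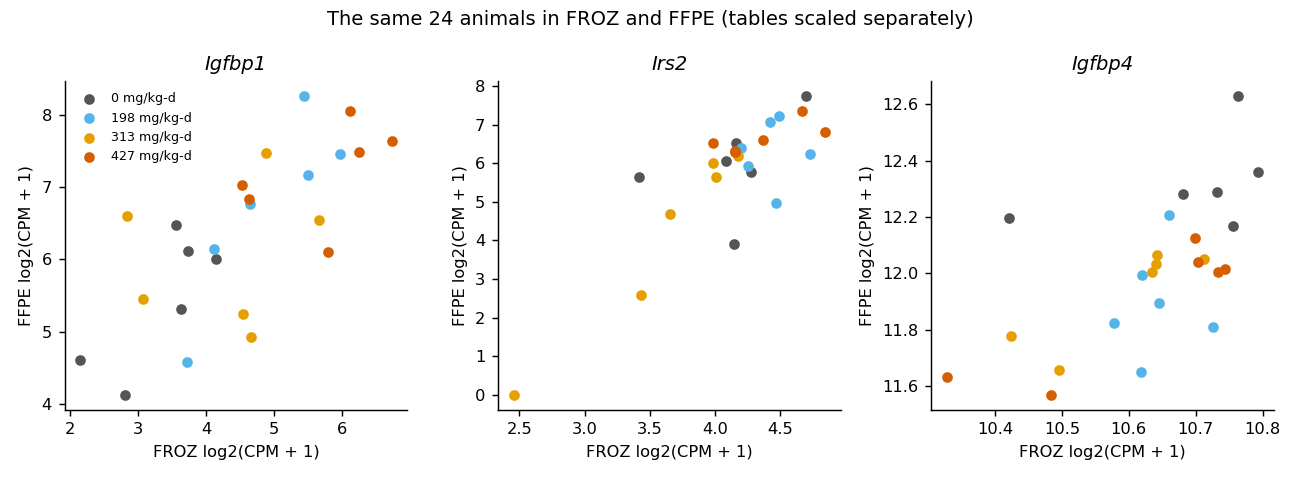
Level of Igfbp1, Irs2 and Igfbp4 in FROZ (horizontal) against FFPE (vertical) of the same animal, both as log2(CPM + 1) from separately scaled tables; each point is 1 of 24 animals, coloured by dose in mg/kg-d. The animal at the lower left of the Irs2 panel is animal 75 of the 313 mg/kg-d group, at 2.46 in FROZ and 0 in FFPE.

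The other genes of the pathway were taken from lists of 64 genes, of which 60 were listed in FROZ. At 427 mg/kg-d 15 of the 60 rose and 4 fell, where 22.7% and 7.33% of all genes did, and at 313 mg/kg-d 14 rose and 5 fell, where 20.5% and 6.15% did. These counts are near the shares over all genes. Relative to the median of all genes, with median-ratio scaling, the counts were 10 and 6 at 427 mg/kg-d and 7 and 10 at 313 mg/kg-d. This scaling shifts all genes, whose counts at 313 mg/kg-d went from 2317 up and 693 down to 1158 and 1219. At 198 mg/kg-d limma called 0 of 60, with 14 at an unadjusted p under 0.05, where 1924 of all 11275 genes were. The exact rank sum test called 0 of the 60 and 0 of all genes.

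Among ligands and receptors (Igf1, Igf1r and Igf2r listed), none was called at 427 mg/kg-d, and Igf1r, the IGF receptor, fell at 313 mg/kg-d by 0.41 ± 0.14 (adjusted p = 0.029). Of the 5 other IGF carriers 1 fell at 427 mg/kg-d, Igfbp3, the main carrier of IGF in plasma, by 0.55 ± 0.16 (adjusted p = 0.011). Its level was 7.47, 7.69 and 7.86 in the controls and 6.80, 7.03 and 7.66 at 427 mg/kg-d. The median of the 5 was -0.11 at 427 mg/kg-d, against 0.10 for all genes. With median-ratio scaling Igfbp3 fell at 313 mg/kg-d too, by 0.48 (adjusted p = 0.029).

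Of the 8 adaptors, Sos1, which activates Ras, rose at 427 mg/kg-d by 0.34 ± 0.10 (adjusted p = 0.012, and 0.18 with median-ratio scaling) and Shc1 fell by 0.32 ± 0.12 (adjusted p = 0.038). None of the 4 PI3K subunits was called at 427 mg/kg-d, and Pik3r3 rose at 313 mg/kg-d by 0.66 ± 0.17 (adjusted p = 0.0045). Among PDK1, AKT and the kinases below, 6 of 11 rose and none fell at both 313 and 427 mg/kg-d, with medians of 0.24 and 0.20 against 0.11 and 0.10 for all genes. With median-ratio scaling 3 of 11 rose at each of these doses. Mtor, the kinase of the mTOR complexes, was the one with the largest change at 427 mg/kg-d, from 3.14, 3.51 and 3.71 in the controls to 3.85, 4.17 and 4.52, a rise of 0.69 ± 0.16 (adjusted p = 0.0011).

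Of 14 brakes on the pathway 1 rose and 1 fell at 427 mg/kg-d, with a median of 0.04 (-0.08 with median-ratio scaling, where 1 rose and 2 fell). Ptpn1, a phosphatase that removes phosphate from the insulin receptor, rose by 0.69 ± 0.17 (adjusted p = 0.0033), and Ptprf, a receptor-type phosphatase, fell by 0.35 ± 0.08 (adjusted p = 0.0024). Neither of the 2 other FoxO factors listed was called at 427 mg/kg-d, and with median-ratio scaling Foxo3 was called at 313 mg/kg-d.

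Of the 6 genes that FoxO1 raises in liver 1 rose and 1 fell at 427 mg/kg-d, with a median of -0.23, and 0 rose and 2 fell at 313 mg/kg-d, with a median of 0.10. With median-ratio scaling 1 rose and 2 fell at 427 mg/kg-d (median -0.37), and 0 rose and 2 fell at 313 mg/kg-d (median -0.04). At 198 mg/kg-d limma and the exact rank sum test called 0 of 6, with a median of -0.62 against 0.07 for all genes. By limma 4 of the 6 had an unadjusted p under 0.05, as did 1924 of all 11275 genes. Of the 6 changes 1 was positive and it was among these 4, so that they did not share a direction. Pdk4, a kinase that inhibits pyruvate dehydrogenase, was at 1.71, 2.15 and 3.79 in the controls and at 4.08, 5.39 and 6.18 at 427 mg/kg-d, a rise of 2.98 ± 0.43 (adjusted p = 6.7e-06). All 6 treated animals were above all controls, which 11.4% of all genes showed at this dose. Pck1, an enzyme of gluconeogenesis, fell by 1.06 ± 0.21 at 313 mg/kg-d (adjusted p = 0.00046) and by 0.72 ± 0.21 at 427 mg/kg-d (adjusted p = 0.010). Ppargc1a, a coactivator of gluconeogenic genes, fell by 0.68 ± 0.23 at 313 mg/kg-d (adjusted p = 0.027). G6pc, the last enzyme of glucose release, was not called, at 0.37 ± 0.25 and 0.36 ± 0.25 (adjusted p = 0.30 and 0.31).

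Of the 7 genes that insulin raises in liver 6 rose and none fell at both 313 and 427 mg/kg-d, with medians of 0.82 and 1.11. Of all genes 20.5% and 22.7% rose at these doses, with medians of 0.11 and 0.10. The list was drawn up with earlier results of these data known, and the part of insulin in these values was not tested. With median-ratio scaling 3 of the 7 rose at 313 mg/kg-d and 5 at 427 mg/kg-d, and none fell. At 198 mg/kg-d limma called 0 of 7, with 1 at an unadjusted p under 0.05 (1924 of all 11275 genes), and the exact rank sum test called 0. Scd1, the desaturase that makes monounsaturated fatty acids, was at 5.52, 6.06 and 7.52 in the controls and at 9.29, 9.50 and 9.58 at 427 mg/kg-d, a rise of 3.28 ± 0.25 (adjusted p = 1.8e-10). Srebf1, a transcription factor of lipid synthesis, rose by 1.73 ± 0.27 (adjusted p = 1.9e-05), and Fasn, the fatty acid synthase, by 1.46 ± 0.19 (adjusted p = 1.3e-06). Pnpla3 rose by 1.11 ± 0.36 (adjusted p = 0.021) and Acaca, the acetyl-CoA carboxylase, by 1.04 ± 0.13 (adjusted p = 5.2e-07). Acly, which makes cytosolic acetyl-CoA, was at -0.34 ± 0.19 (adjusted p = 0.19).

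**Figure D5:**
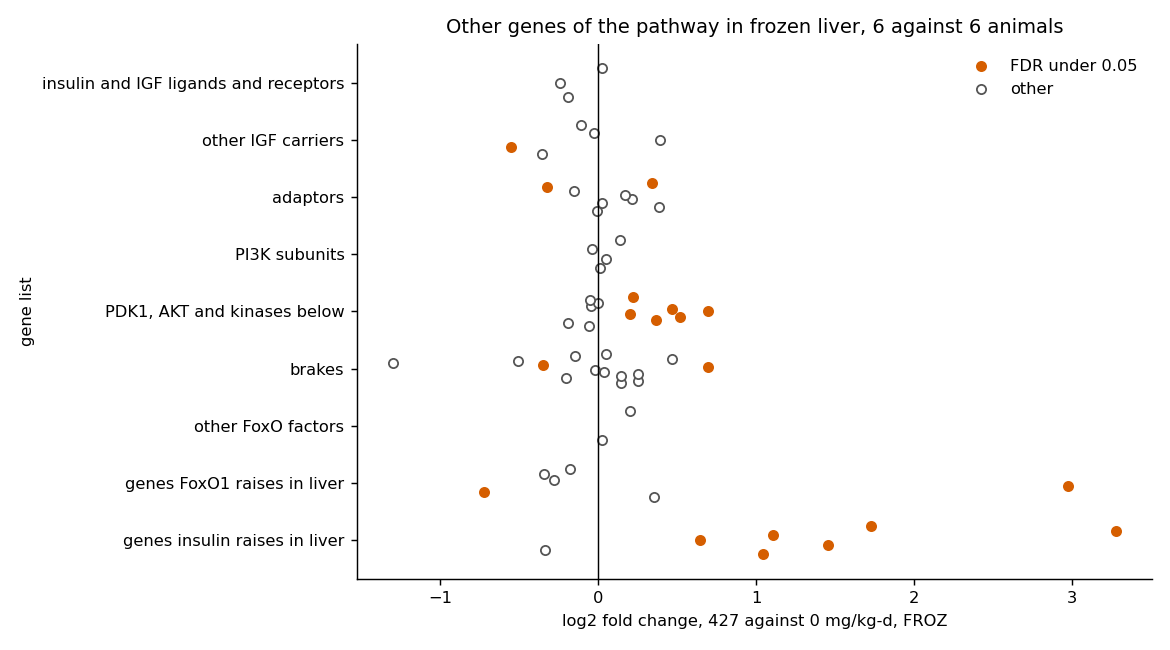
Log2 fold change at 427 against 0 mg/kg-d in FROZ for the 60 listed pathway genes that are not members, grouped by list on the vertical axis; each point is 1 gene compared between 6 and 6 animals, filled where the adjusted p was under 0.05. Of the 7 genes that insulin raises, 6 are filled to the right of 0, and Pdk4 stands apart from the other genes that FoxO1 raises.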

How the data were processed

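The deposited values are log2(CPM + 1) per gene, 1 table for FROZ and 1 for FFPE. As the methods of the study and the submitters' processing notes state, the authors aligned reads to mm10 with STAR 2.6 in Partek, estimated gene counts by expectation maximization, added 0.0001 to every count, dropped genes whose geometric mean was at most 1, and scaled to CPM. Reads of very abundant transcripts were attenuated equally in all samples. Read as log2(CPM + 1), the values sum to 1000000 CPM in every library of each table, so the scaling is per table and over the listed genes only, and tests of dose were made within a table. The CPM of 1 read was taken as the step of low values (97.0% whole within 0.1 read in the median FROZ library, 89.3% in FFPE).

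Group means were fitted to all 24 libraries of a table with limma 3.58.1 (R 4.3.3), with a prior on the variance fitted against mean expression, and p-values were adjusted over all genes. Dose slopes, steps between doses, and per-animal FFPE minus FROZ differences were fitted likewise. FROZ and FFPE libraries with the same number are from the same mouse by the labels, which is the block of the last comparison. Correlations used Python 3.11.15 with scipy 1.17.1. The fits were tested on simulated data. The alternatives tried were median-ratio scaling, an offset of 0.1 CPM, a filter at a mean of 10 CPM, a prior without trend, array quality weights, only the 2 groups compared, an exact rank sum test and leaving out each animal. Labels give no batch.

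The members and the gene lists were chosen with earlier results of these data known. Named were all members, the listed pathway genes called with a change over 2-fold at 427 mg/kg-d in FROZ or the 1 with the largest change where a list had none, and the 3 genes most like Igfbp1; the other genes named (Igf1r, Foxo3, Shc1, Pik3r3, Ptprf, Pck1, G6pc, Ppargc1a, Acly and the markers) were chosen after their values were seen. The values of 1 listed gene are not reported here. Gene positions are from GENCODE vM21. Probe positions are not given in the sources used here.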

Additional observations from a re-analysis of the deposited data

Results flagged for a closer look

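In 2 of the 60 groups of 6 libraries formed by a member, a table and a dose, 1 animal lay farther from the others than Dixon's test allows (gap over range of 0.70 and 0.672), which chance gives in about 1 group of 20. Igfbp4 in FROZ was at 10.42 in control animal 4, where the other controls were at 10.68 to 10.79. Akt2 in FFPE was listed at 0 in animal 75 of the 313 mg/kg-d group, where the others were at 3.30 to 4.91. No member's response differed between FFPE and FROZ after adjustment over all genes.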

How the results depend on the processing

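With median-ratio scaling 4 of 9 members were called at 313 mg/kg-d in FROZ and 3 for the slope. Of all 11275 genes 2377 and 3049 were called. With genes of at least 10 CPM, 3 of the 6 members left were called at 427 mg/kg-d, 2 from 198 to 313 mg/kg-d and 3 for the slope. Of the 5875 genes left, 2667, 1243 and 2817 were called there, so 3 of 6 is near the share of all genes. With only the 2 groups in the fit 3 members were called at 427 mg/kg-d in FROZ and 1 in FFPE, which was past 2-fold. Of all genes, 3363 of 11275 in FROZ and 427 of 6673 in FFPE were called. Array quality weights called 2 members from 313 to 427 mg/kg-d in FROZ, 2 at 427 mg/kg-d in FFPE (1 past 2-fold) and 2 for the FFPE slope. Of all genes they called 428 of 11275, 524 of 6673 (281 past 2-fold) and 512 of 6673. The exact rank sum test called 0 members at 198 and 1 at 427 mg/kg-d in FROZ and 1 at 427 mg/kg-d in FFPE. Of all genes it called 0 and 2633 of 11275 and 299 of 6673. A variance prior without trend called 0 members and 100 of 11275 genes at 198 mg/kg-d in FROZ. The cause of these differences was not tested.

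Leaving out each animal in turn, FROZ calls ranged from 0 to 1 at 198, 2 to 3 at 313 and 3 to 5 at 427 mg/kg-d, 1 to 2 from 198 to 313 and 0 to 1 from 313 to 427 mg/kg-d, and 4 to 5 for the slope, and past 2-fold from 0 to 1 at 313 mg/kg-d. FFPE calls at 427 mg/kg-d ranged from 0 to 1, as did those past 2-fold. No called member changed sign under any alternative run.

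Fitted to all 48 libraries with no replicate block, in place of the pairing by animal, the FFPE minus FROZ responses gave 0 called members at each dose, as the paired fit did, and Igfbp4 at 198 mg/kg-d was at -0.38 (adjusted p = 0.31). Irs1, Pik3r1 and Igfbp2 in FROZ had 20 to 142 reads per library, and the part of depth in their results was not tested.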
